A study of Mus musculus with 6 samples.

Results

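The genes of intestinal iron and zinc uptake and storage were followed on arrays that compared mice given exosomes from lean or obese donors. They were chosen by name, namely Slc11a2, Slc40a1, Cybrd1, Heph, Slc39a4, Tfrc, Fth1, Ftl1, Mt1 and Mt2. These 10 genes, out of 19505 with a symbol, were all measured, each by 1 probe set. The recipients were male C57BL/6 mice (C57BL/6J in the labels), 8 to 12 weeks old, fed a high-fat diet (HFD, 60% fat) and gavaged daily for 14 days with 2000000000 fecal exosomes per dose. In the L-Exo group the donors had eaten a regular chow diet and in the H-Exo group an HFD for 12 months. Each group had 3 Affymetrix arrays. Recipients without exosomes were not analysed here, so both groups share the HFD and the gavage. The sources used here do not say whether 1 array stands for 1 mouse, and each p-value describes the spread among arrays, which may be technical.

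Dietary iron is reduced at the brush border by ferric reductases such as duodenal cytochrome b (Cybrd1), enters the enterocyte through the divalent metal transporter DMT1 (Slc11a2), leaves it through ferroportin (Slc40a1) and is oxidized on the way out by hephaestin (Heph). Iron that is not passed on is kept in ferritin, a shell of heavy (Fth1) and light (Ftl1) chains, and cells take up transferrin-bound iron through the transferrin receptor (Tfrc). Zinc enters through ZIP4 (Slc39a4) and is bound by the metallothioneins (Mt1, Mt2), small cysteine-rich proteins that are induced by zinc, glucocorticoids and oxidative stress. Hepcidin, a hormone of the liver, holds iron export down by binding ferroportin.

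All values below are log2 units as made by RMA, a method that subtracts background, brings the arrays to a common scale and combines the probes of a gene into 1 value. Background was set on each array at the 95th percentile of its negative control probes, which lay between 7.97 and 8.41. A value within 0.5 of the highest on its array was called saturated. Of the 22206 probe sets, 18.6% were above background on all 6 arrays.

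The tissue label was checked against marker genes. Of 12 hepatocyte markers 2 were above background on all 6 arrays and 6 on none, whereas of 12 enterocyte markers 11 were above it on all 6. Of 5 ileum markers 4 were above background on all 6 arrays, and of 5 duodenum markers none on any array. The gene for hepcidin (Hamp) was below background on all 6 arrays, between 4.24 and 5.87. These markers go against the label, so the values are described as those of arrays labelled liver. As these are bulk samples, fewer cells of a type and less RNA per cell cannot be told apart. L-Exo replicate 1 stood apart, with a mean correlation over all probe sets of 0.951 with the other arrays, followed by H-Exo replicate 1 with 0.963, against 0.971 to 0.975 for the remaining arrays. In limma's array weights L-Exo replicate 1 had the lowest, 0.315.

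The metallothioneins sit side by side on mouse chromosome 8, and the zinc-sensing factor MTF-1 is known to bind the metal response element in front of both. As Mt1 and Mt2 were low and high on largely the same arrays, the 250 bases before their annotated starts are shown (RefSeq, GRCm38.p6, plus strand, chr8:94178839-94179088 for Mt1 and chr8:94172368-94172617 for Mt2). Capitals mark matches to the core of that element, searched as TGCACNC or TGCGCNC on both strands.
Mt1: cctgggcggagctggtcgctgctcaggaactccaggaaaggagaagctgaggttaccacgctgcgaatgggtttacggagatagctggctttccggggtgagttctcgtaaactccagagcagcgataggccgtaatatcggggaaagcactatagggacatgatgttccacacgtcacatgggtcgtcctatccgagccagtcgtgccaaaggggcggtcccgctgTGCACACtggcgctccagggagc
Mt2: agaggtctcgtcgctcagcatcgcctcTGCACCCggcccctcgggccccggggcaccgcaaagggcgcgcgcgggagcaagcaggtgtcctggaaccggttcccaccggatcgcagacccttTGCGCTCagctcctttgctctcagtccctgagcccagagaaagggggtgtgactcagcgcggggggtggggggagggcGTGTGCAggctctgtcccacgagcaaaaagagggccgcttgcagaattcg
With the 50 bases after the start included, Mt1 held 3 matches and Mt2 held 4. Only 1 of the Mt1 matches lies before the annotated start, and the others begin at bases 3 and 21 after it. For Mt2, 3 lie before the start and the other begins at base 5 after it. The matches after the start are not in the bases printed. Of all 32851 windows of 300 bases in the RefSeq table, 25.7% held at least 1 match, 1.97% at least 3 and 0.517% at least 4. The matches are letters in a window, and whether MTF-1 was bound there was not measured. Of the other genes, Cybrd1, Fth1, Ftl1 and Tfrc had windows in the table. The upstream Tfrc window held 2 matches, which overlap on opposite strands, and the windows of Cybrd1, Fth1 and Ftl1 held none. Windows of Slc11a2, Slc40a1, Heph and Slc39a4 were not used here.

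None of the 10 genes passed the test between H-Exo and L-Exo (limma adjusted p from 0.988 to 0.995, adjusted over 22206 probe sets). The 3 with the largest differences in size were Mt2, Tfrc and Heph, at 0.99, -0.62 and 0.52 on the log2 scale, and every 95% interval included 0. By limma 0 of the 10 passed at an adjusted p under 0.05, as did 0 of all probe sets (0%), and 0 of the 10 had an unadjusted p under 0.05, against 901 of all probe sets (4.06%, with 2.32% higher and 1.74% lower in H-Exo). The groups overlapped for each of the 10 genes, where they did not overlap for 9.61% of all probe sets. Cybrd1, below background on all 6 arrays, and Fth1, saturated on all 6, give no direction. Of the other 8 genes, 4 had a higher mean and 4 a lower mean in H-Exo, with a median difference of 0.08, which was -0.36 without L-Exo replicate 1. Among the 6610 probe sets above background on at least 1 array and not saturated on all 6, 47.9% had a higher mean in H-Exo and the median was -0.03 (48.9% and -0.01 over all probe sets).

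**Figure D1:**
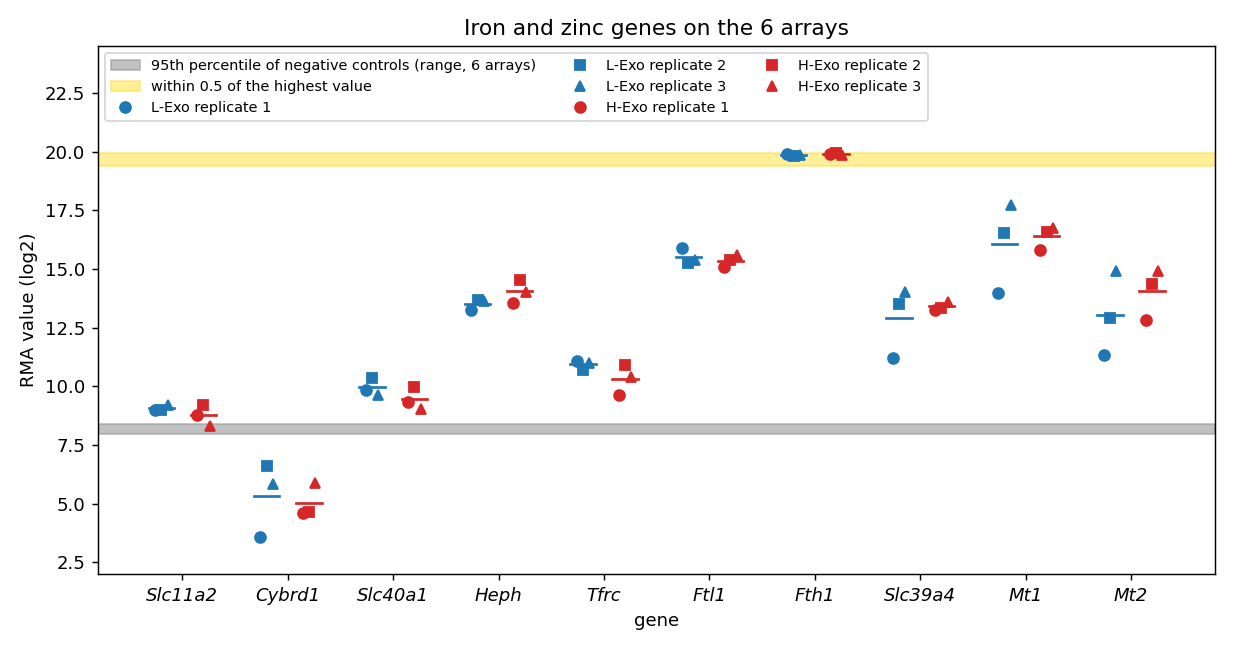
The RMA value (log2, vertical axis) of the 10 genes on each array, with L-Exo in blue and H-Exo in red, 1 point per array and a bar at the mean of 3. Cybrd1 lies below the grey band of the negative controls on all 6 arrays, Fth1 lies in the yellow band at the ceiling on all 6, and the groups overlap for every gene.

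Uptake of iron at the apical membrane was measured through Cybrd1 and Slc11a2. Cybrd1 was at 3.57, 6.62 and 5.83 on L-Exo replicates 1 to 3 and at 4.61, 4.64 and 5.90 on H-Exo replicates 1 to 3. All 6 values were below background, so that no fold is given. Between 5.48% (L-Exo replicate 1) and 80.6% (L-Exo replicate 2) of the negative control probes lay below Cybrd1 on the same array. Slc11a2, which encodes DMT1, was at 8.98, 9.01 and 9.23 in L-Exo and at 8.77, 9.20 and 8.31 in H-Exo. It was above background on 5 arrays, and H-Exo replicate 3 was the one below. H-Exo minus L-Exo was -0.31 (standard error, SE, 0.32, limma adjusted p = 0.988), with a 95% interval from -1.03 to 0.41. It was -0.09 without H-Exo replicate 3 and -0.53 without H-Exo replicate 2.

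Export of iron was measured through Slc40a1 and Heph, which were above background on all 6 arrays. Slc40a1, the gene of ferroportin, was at 9.86, 10.37 and 9.63 in L-Exo and at 9.32, 9.98 and 9.05 in H-Exo. The highest value was on an L-Exo array and the lowest on an H-Exo array, and H-Exo replicate 2 lay above L-Exo replicates 1 and 3. The difference was -0.51 (SE 0.35, limma adjusted p = 0.988; exact permutation test, two-sided p = 0.3), and 3 arrays against 3 allow no p below 0.1. It was -0.30 without L-Exo replicate 2, -0.31 without H-Exo replicate 3 and -0.77 without H-Exo replicate 2. Ferroportin is also made by macrophages. Of 9 measured macrophage markers 7 were above background on no array. Of the other 2, 1 had a higher and 1 a lower mean in H-Exo. The part of these markers in the ferroportin values was not tested.

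Heph, the oxidase that works beside ferroportin, was at 13.25, 13.68 and 13.63 in L-Exo and at 13.56, 14.55 and 14.02 in H-Exo. H-Exo replicates 2 and 3 were above every L-Exo array, and H-Exo replicate 1 lay among them. The difference was 0.52 (SE 0.34, limma adjusted p = 0.988), with a 95% interval from -0.24 to 1.28. It was 0.27 without H-Exo replicate 2 and 0.76 without H-Exo replicate 1.

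Tfrc, through which dividing cells in particular take up transferrin iron, was at 11.10, 10.72 and 11.00 in L-Exo and at 9.64, 10.91 and 10.41 in H-Exo. H-Exo replicates 1 and 3 were below the lowest L-Exo value and H-Exo replicate 2 was not. The difference was -0.62 (SE 0.37, limma adjusted p = 0.988; exact permutation test, two-sided p = 0.2), and it was -0.28 without H-Exo replicate 1 and -0.91 without H-Exo replicate 2. Of 7 measured proliferation markers 2 were above background on all 6 arrays and 2 on none. The 5 that were above it on any array all had a lower mean in H-Exo, with a median difference of -0.35, and 0 of them had an unadjusted limma p under 0.05; 3 were lower without L-Exo replicate 1, H-Exo replicate 2 or H-Exo replicate 3. The mean value of all 7, which includes the 2 below background, ranged from 9.28 to 9.69 in L-Exo and from 8.55 to 9.67 in H-Exo. The part of these markers in the Tfrc values was not tested.

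Ferritin gave little room for a comparison. Fth1, the heavy chain, was saturated on all 6 arrays, between 19.83 and 19.92, as were 0.189% of all probe sets, which left no room to see a difference. Ftl1, the light chain, was at 15.89, 15.24 and 15.38 in L-Exo and at 15.09, 15.37 and 15.61 in H-Exo. L-Exo replicate 1 held its highest value and H-Exo replicate 1 its lowest. The difference was -0.15 (SE 0.31, limma adjusted p = 0.989). It was 0.05 when L-Exo replicate 1 was left out and -0.28 when L-Exo replicate 2 was. Both ferritin genes have near-identical copies in the mouse genome that may share probes.

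**Figure D2:**
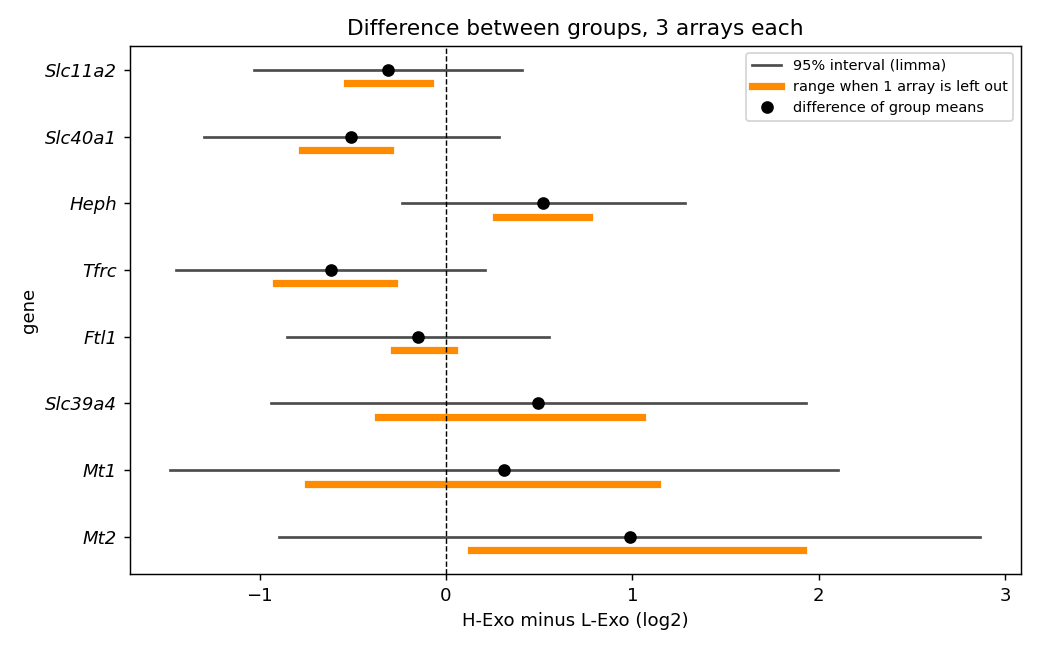
The difference of group means, H-Exo minus L-Exo (log2, horizontal axis), for 8 genes as black points, with limma's 95% interval in grey and the range obtained when 1 array was left out in orange. Every interval crosses 0, and the orange range crosses 0 for Ftl1, Slc39a4 and Mt1; Cybrd1 (below background) and Fth1 (saturated) are left out.

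The zinc genes varied more between arrays than between groups. Slc39a4, the gene of ZIP4, was at 11.19, 13.53 and 14.02 in L-Exo and at 13.27, 13.35 and 13.61 in H-Exo. L-Exo replicate 1 was the lowest of all 6 and L-Exo replicates 2 and 3 were on either side of the highest H-Exo value. The standard deviation was 1.51 in L-Exo and 0.18 in H-Exo (n = 3 arrays each). The difference was 0.50 (SE 0.64, limma adjusted p = 0.988). It was -0.37 when L-Exo replicate 1 was left out and 1.05 when L-Exo replicate 3 was.

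Mt1 was at 13.97, 16.54 and 17.71 in L-Exo and at 15.82, 16.59 and 16.76 in H-Exo. L-Exo held both its lowest and its highest value, on replicates 1 and 3. The mean of the L-Exo arrays was 16.08 ± 1.91 (SD, n = 3), that of the H-Exo arrays 16.39 ± 0.50 (SD, n = 3). The difference was 0.31 (SE 0.80, limma adjusted p = 0.989). It was -0.74 when L-Exo replicate 1 was left out and 1.13 when L-Exo replicate 3 was.

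Mt2 was at 11.35, 12.91 and 14.92 in L-Exo and at 12.84, 14.37 and 14.92 in H-Exo. L-Exo replicate 1 was again the lowest, and replicate 3 of each group held the highest values. The difference was 0.99 (SE 0.83, limma adjusted p = 0.988), with a 95% interval from -0.89 to 2.87. Leaving out L-Exo replicate 1 gave 0.13, and leaving out L-Exo replicate 3 gave 1.91.

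**Figure D3:**
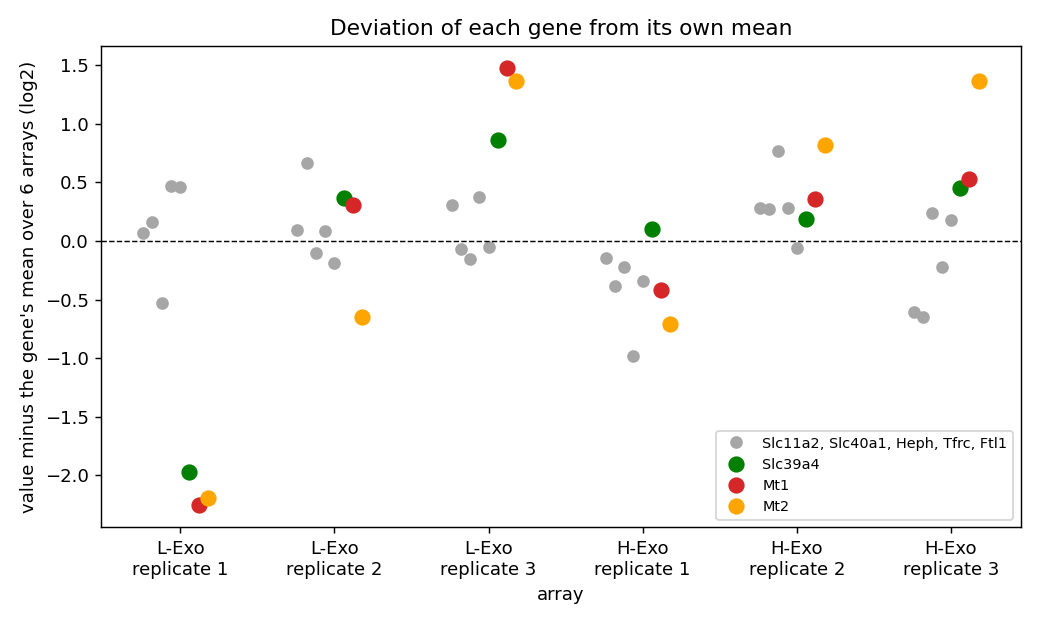
The value of 8 genes minus each gene's own mean over the 6 arrays (log2, vertical axis), with 1 group of points per array; Cybrd1 (below background) and Fth1 (saturated) are left out. Slc39a4, Mt1 and Mt2 lie lowest on L-Exo replicate 1, as does Heph by 0.31, while Slc11a2, Slc40a1, Tfrc and Ftl1 do not.

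Slc39a4, Mt1 and Mt2 stood out by how low they were on L-Exo replicate 1, a comparison chosen after the values were seen. The distance from that array up to the next lowest was 2.08 for Slc39a4, 1.84 for Mt1 and 1.49 for Mt2. Among the 4024 probe sets above background on all 6 arrays and saturated on none, 32.9% were lowest on L-Exo replicate 1 and 26.9% on H-Exo replicate 1. A distance as large as that of Slc39a4 was found for 0.373% of them, as large as that of Mt1 for 0.770% and as large as that of Mt2 for 1.91%. Slc11a2 and Slc40a1 were lowest on H-Exo replicate 3 and Tfrc and Ftl1 on H-Exo replicate 1. Over all 6 arrays the standard deviation was 1.43 for Mt2, 1.26 for Mt1 and 1.00 for Slc39a4, larger than for 98.7%, 97.8% and 94.2% of these probe sets.

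Some of the other tissue marker lists also moved on L-Exo replicate 1. The hepatocyte and macrophage means there lay within the range of the other arrays. The mean of the 5 ileum markers was 14.4 there and 14.5 on H-Exo replicate 1, against 15.3 to 16.2 on the others. The mean of the 12 enterocyte markers, 4 of which were saturated on all 6 arrays, was 17.1 on L-Exo replicate 1 and between 17.5 and 17.7 on each other array. The mean of the 6 smooth muscle markers was 17.6, 16.1 and 15.3 on L-Exo replicates 1 to 3. It was 18.0, 15.8 and 14.7 on H-Exo replicates 1 to 3, so it fell with the replicate number in both groups. On H-Exo replicate 1 Slc39a4 was at 13.27, against 13.35 and 13.61 on H-Exo replicates 2 and 3. Mt1 was at 15.82 there, against 16.59 and 16.76, and Mt2 at 12.84, against 14.37 and 14.92. The part of these markers in the zinc genes was not tested.

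Among 3645 other named probe sets above background on all 6 arrays, the profile most like that of Mt1 was Ogdh (Pearson's r = 0.999 over 6 arrays), then Slc35e2 and Sgms2. Mt2 was most like Herc4 (r = 0.990), then Insr and Prkcd. Slc39a4 was most like Hexim1 (r = 0.999), then Fam234a and Usp4. These are descriptions over 6 values that include L-Exo replicate 1, on which many genes were low.

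A wider list of 83 measured genes of iron, zinc and copper was examined beside the 10. Of these, 24 were above background on all 6 arrays and 41 on none. Of the 42 above it on at least 1 array, 15 (35.7%) had a higher and 27 a lower mean in H-Exo, with a median difference of -0.10. Among the 6610 probe sets taken by the same rule, 47.9% had a higher mean and the median was -0.03. Some of the 42, such as Trf and Slc25a28, were above background on few arrays, and the count was not repeated with arrays left out. By limma's adjusted p 0 of the 83 passed. At an unadjusted p under 0.05 there were 4 (4.82%, against 4.06% of all probe sets), 1 higher and 3 lower. Groups did not overlap for 8 of the 83 genes (9.64%, against 9.61%).

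Egln3, a prolyl hydroxylase that marks hypoxia-inducible factors for destruction and is itself induced by them, had the largest of these differences in size. It was at 8.62, 9.87 and 10.07 in L-Exo and at 14.40, 11.21 and 10.81 in H-Exo. The groups did not overlap, and H-Exo replicate 1 lay 3.20 above the next array. The difference was 2.62 (SE 0.85, limma adjusted p = 0.988; two-sided exact permutation p = 0.1, the lowest possible with 3 against 3), and 1.49 without H-Exo replicate 1. Of the other genes of that pathway, Hif1a was at 9.62, 9.75 and 9.02 in L-Exo and at 11.44, 9.79 and 9.07 in H-Exo. Egln1, above background on all 6 arrays, was lowest on H-Exo replicate 1, at 9.22, with a difference of -0.12 (SE 0.38). Egln2, above background on 4 arrays, had a difference of 0.17 (SE 0.29). Epas1, which encodes the factor HIF-2α that drives iron uptake genes in the duodenum, was below background on all 6 arrays.

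Of 33 other genes of iron transport and handling, 2 had an unadjusted limma p under 0.05, both lower in H-Exo. Of all probe sets 4.06% had such a p, 1.74% lower in H-Exo. Trf, the gene of transferrin, was at 8.87, 7.98 and 8.93 in L-Exo and at 7.00, 7.69 and 7.21 in H-Exo. It was above background on 2 L-Exo arrays and on no H-Exo array, so no fold is given (limma adjusted p = 0.988 on these values). Transferrin is made mainly by hepatocytes, and 6 of the 12 hepatocyte markers were above background on no array. The other 6 all had a lower mean in H-Exo, with a median difference of -0.57, and 4 to 6 of them did when 1 array was left out. Alb alone of these 6 had an unadjusted limma p under 0.05 (adjusted p = 0.761), and it was below background on every H-Exo array. The mean value of all 12, which includes the 6 below background, ranged from 7.18 to 8.27 in L-Exo and from 6.63 to 6.97 in H-Exo. The part of these markers in the Trf values was not tested. Slc25a28, a mitochondrial iron importer (mitoferrin 2), was at 8.32, 8.43 and 8.28 in L-Exo and at 7.31, 7.48 and 7.99 in H-Exo. It was likewise above background on 2 L-Exo arrays and on no H-Exo array, so no fold is given (limma adjusted p = 0.988 on these values). Pcbp2, an iron chaperone that also binds RNA, was above background on all 6 arrays with a difference of 0.47 (SE 0.34), and 0.17 without L-Exo replicate 1.

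Of 18 regulators of iron, 10 were above background on no array. Of the other 8, 3 had a higher and 5 a lower mean in H-Exo. Egln3 alone of the 18 had an unadjusted limma p under 0.05, as did 4.06% of all probe sets. Aco1, which encodes the iron regulatory protein IRP1 that binds ferritin and Tfrc transcripts, was between 10.97 and 11.34 in L-Exo and between 10.70 and 11.57 in H-Exo. The difference was -0.11 (SE 0.33). The group ranges of Aco1 thus lay one inside the other.

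The zinc carriers listed here leave out Slc39a4, given above, and the ZIP genes Slc39a8 and Slc39a14, counted with iron transport. Of those listed, 7 of 11 importers of the ZIP family and 4 of 10 exporters of the ZnT family were above background on no array. Of the 4 other ZIP genes 1 had a higher and 3 a lower mean in H-Exo (median -0.03), which turned to 3 higher and 1 lower with quantile normalization and in 4 of the 6 fits that left out 1 array. Of the 6 other ZnT genes 1 was higher and 5 were lower (median -0.23), and 3 were higher and 3 lower without H-Exo replicate 1. Slc30a10, an exporter known for carrying manganese, was the 1 zinc carrier listed with an unadjusted limma p under 0.05 (4.06% of all probe sets had one). It was at 7.16, 7.57 and 8.11 in L-Exo and at 5.39, 7.03 and 6.72 in H-Exo, below background on all 6 arrays, so no fold is given. Slc30a4, an exporter above background on all 6, was at 13.26, 12.26 and 12.23 in L-Exo and at 11.56, 12.24 and 12.21 in H-Exo. Its difference of -0.58 (SE 0.38) was -0.24 without L-Exo replicate 1. Slc39a9, an importer above background on all 6, had a difference of -0.06 (SE 0.34).

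Mtf1, the gene of the zinc-sensing factor, was at 9.11, 10.01 and 10.14 in L-Exo and at 9.15, 9.84 and 10.17 in H-Exo. It was lowest on replicate 1 of each group, and its difference was -0.03 (SE 0.39). Slc30a1, a zinc exporter that MTF-1 is known to induce, was at 7.83, 9.24 and 8.22 in L-Exo and at 7.98, 8.89 and 8.60 in H-Exo, above background on 3 arrays. Mt3 and Mt4, the metallothioneins of brain and stratified epithelium, were below background on all 6 arrays. Of 8 copper genes none had an unadjusted p under 0.05, and Cox17, a copper chaperone for cytochrome oxidase, had a difference of 0.14 (SE 0.32).

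**Figure D4:**
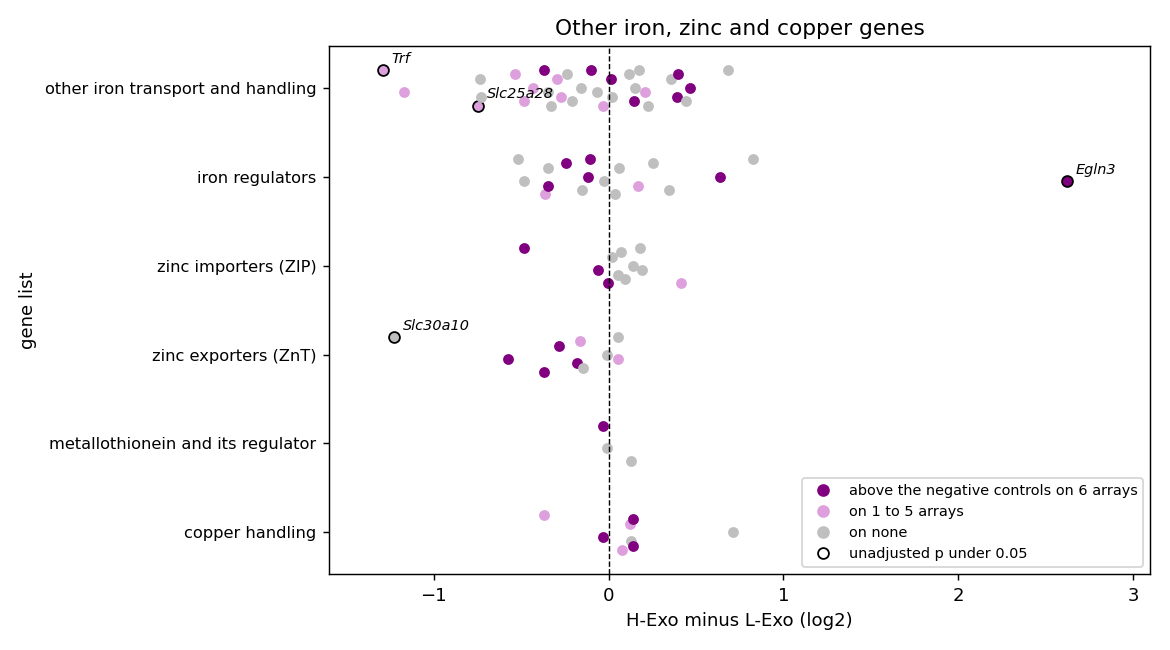
The difference H-Exo minus L-Exo (log2, horizontal axis) for 83 other genes in 6 lists, 1 point per gene, darker where the gene was above background on more arrays and ringed at an unadjusted p under 0.05. Egln3 lies farthest out, at 2.62. Trf and Slc25a28 were above background on no H-Exo array and Slc30a10 on no array, so the places of these points and of the grey ones are not measured differences; none of the 83 passed after adjustment.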

How the data were processed

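RNA of 6 samples labelled liver, 3 L-Exo and 3 H-Exo, was hybridized to Affymetrix arrays. Per the labels, Transcriptome Analysis Console 4.0 and RMA were used by the authors to obtain the log2 values they deposited. For RMA settings and genome build, nothing was given in the sources used here. Values entered the fit without further normalization. Of the 28846 rows deposited, 5222 negative controls and 1418 other controls were left out, and 22206 probe sets were fitted in R 4.3.3 by limma 3.58.1 (lmFit, then eBayes; two-sided tests, p adjusted after Benjamini and Hochberg over all of them, threshold 0.05). Probe sets were named through the platform annotation (19572 named, 2634 unnamed here), with older symbols matched through a RefSeq table, and the probe set with the highest mean stood for a gene. Single values were also compared by an exact permutation test. The background and saturation limits were those stated in the report.

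The 10 genes and all lists were chosen with earlier results of these data known. From each wider list, up to 4 genes with the smallest unadjusted p under 0.05 and the gene with the highest mean were named. Some further genes were chosen after their values were seen (Hamp, Hif1a, Epas1, Egln1, Egln2, Slc30a1, Mt3 and Mt4). The erythroid and the B and T cell markers were also examined: of 3 erythroid markers none was above background on any array, and of 7 B and T cell markers 5 were above background on no array and the other 2 had a higher mean in H-Exo (median difference 2.31). Alternatives were trend and robust settings, dim filters, quantile and median scaling, array weights, a replicate block, left-out arrays, the methods' t-test, the mean per gene and a threshold of 0.1. The number of arrays limits the precision.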

Additional observations from a re-analysis of the deposited data

How the results depend on the processing

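None of the 10 genes passed under any alternative run, including the replicate block, array weights and each left-out array (0 to 0 genes). The same held for the t-test of the methods before adjustment (0). Of the 8 genes with a measured difference, 5 (Slc11a2, Slc40a1, Heph, Tfrc and Mt2) kept its sign with scaling, array weights and left-out arrays. The other alternatives leave a difference of group means as it is, so they could not turn a sign. No difference was recomputed for Cybrd1, below background on all 6 arrays, Fth1, saturated on all 6, or Slc30a10, below background on all 6. Of the wider list, 0 passed except with the t-test of the methods and a threshold of 0.05 with no adjustment. There 3 did (Trf, Slc25a28 and Tmprss6) and 0 after adjustment. The share of all probe sets that did so by that t-test was not counted, so nothing is read from this count. Tmprss6 was below background on all 6 arrays, and Trf and Slc25a28 on every H-Exo array. Leaving out 1 array gave 0 to 0. With array weights the sign turned for Slc39a4 (-0.0484), Ftl1 (0.0701), Mt1 (-0.11) and Cox17 (-0.0204). Without both replicate 1 arrays it turned for Slc39a4 (-0.29), Ftl1 (0.18), Mt1 (-0.45), Aco1 (0.0821) and Cox17 (-0.17), and with quantile normalization for Slc39a9 (0.0051). Leaving out 1 array put Slc39a4 between -0.37 and 1.05, Ftl1 between -0.28 and 0.0454, Mt1 between -0.74 and 1.13, Aco1 between -0.36 and 0.0746, Slc39a9 between -0.34 and 0.0854, Mtf1 between -0.35 and 0.25 and Cox17 between -0.0665 and 0.33. The low ends of Slc39a4 and Mt1 are those without L-Exo replicate 1; the cause was not tested.

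Of the 10 genes, 8 were above background on all 6 arrays at the 95th percentile of the negative controls, 4 at the 99th, a limit chosen after the data were seen. The replicate number as a block changed no call (0 of the 10 genes). Same-numbered arrays had correlations of their deviations from the group means of 0.22, 0.04 and 0.18 for numbers 1 to 3. L-Exo replicates 1 and 3 were each closest to their own number in H-Exo. Between L-Exo replicate 1 and H-Exo replicate 3 the value was -0.18, and between L-Exo replicate 3 and H-Exo replicate 1 it was -0.22. L-Exo replicate 2 was closer to H-Exo replicate 3 (0.07) than to its own number. The mean of the smooth muscle markers fell from number 1 to number 3 in both groups. The numbers were not taken as pairs, and what they stand for was not tested.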
